A study of Mus musculus with 6 samples.

Results

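The genes described here are the VEGF ligands Vegfa, Vegfb, Vegfc, Vegfd and Pgf, the VEGF receptors Flt1, Kdr and Flt4, and the Notch ligand Dll4. They were taken by gene name from a deposited table of 49164 genes with counts, in which all 9 were found once each. The RNA came from dissected nasal conchae, labelled olfactory epithelium, of 6 c57Bl6/ICR crossbred mice aged 3 months, sequenced in bulk. The 3 sFlt1 mice came from crossing the camk2a-tTa and tet-sFlt1 lines, so that soluble Flt1 was made once tetracycline was removed from the water at embryonic day 13.5. At 2 months MRI put their olfactory bulbs at 28%, 29% and 14% of the normal size in replicates 1, 2 and 3. The 3 control mice are labelled WT, with no treatment and a normal bulb. Both groups were bred on the same mixed background, and the Camk2a promoter is best known for expression in forebrain neurons. Values are CPM, the reads of a gene scaled to a common library size after TMM normalization, positions are GRCm39, and a log2 fold change is sFlt1 over control from edgeR's quasi-likelihood test.

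VEGF ligands are secreted dimers that signal through receptor tyrosine kinases, mostly on endothelial cells. Kdr (VEGFR2) carries most of the growth signal of Vegfa in blood vessels. Flt1 (VEGFR1) binds Vegfa, Vegfb and Pgf tightly but signals weakly, and its soluble form, which lacks the kinase, traps these ligands. Flt4 (VEGFR3) is the receptor of Vegfc and, in mice, of Vegfd, and is best known in lymphatic vessels. Dll4, a membrane ligand of Notch receptors, is induced by VEGF in the tip cells of sprouts and restrains further sprouting. In the olfactory mucosa, vessels run in the lamina propria beneath the sensory epithelium.

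Library totals ranged from 28832424 to 46444862 counts. Markers of olfactory tissue were abundant, with Omp at 1317, 2366 and 465.8 CPM in sFlt1 replicates 1, 2 and 3 and at 3598, 4056 and 2836 CPM in control replicates 1, 2 and 3. Several libraries stood apart. All mice are labelled male, but sFlt1 replicate 3 and control replicate 1 had Xist, the RNA of the inactive X chromosome, at 523.7 and 709.9 CPM, and elsewhere it did not exceed 0.371 CPM. Ddx3y, Eif2s3y and Kdm5d, which are Y-linked, summed to no more than 0.115 CPM in those libraries. Brain and bulb neuron markers, led by Th, Gabra2, Gad1 and Gad2, had lower estimates in 7 of 7, and they summed to 12.2, 9.04 and 78.8 CPM in sFlt1 mice and to 68.0, 67.5 and 1216 CPM in control mice. Mature olfactory neuron markers had lower estimates in 8 of 8, with log2 fold changes of -1.34 for Omp, -1.29 for Ano2, -1.13 for Stoml3 and -1.11 for Gnal. Macrophage markers had higher estimates in 5 of 5, with Cd14 at 1.68, Cd68 at 1.47 and Csf1r at 0.16. Muscle and bone markers had higher estimates in 6 of 7, with Mylpf at 1.18, Ibsp at 1.12 and Bglap at 1.01. Their sums were 347.5, 142.6 and 20.6 CPM in sFlt1 mice and 171.6, 43.1 and 20.2 CPM in control mice, and their median log2 fold change of 1.18 turned to -1.63 without sFlt1 replicate 1. Sustentacular markers were divided, 2 higher and 4 lower, with Cbr2 at 0.49, Sult1c1 at -0.57, Cyp2a5 at 0.050 and Cyp2g1 at -0.24, and their median of -0.12 turned to 0.12 when control replicate 2 was left out and to 0.10 when sFlt1 replicate 1 was. The 18 endothelial markers used here were all detected in every library, and their summed level was lowest in sFlt1 replicate 2.

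No member passed at an adjusted p of 0.05, and neither did any of the 19899 genes tested (0% of genes by edgeR). The clearest difference was in Vegfd, which was higher in all 3 sFlt1 mice than in any control, with an estimate of 2.77-fold. Dll4 had the next highest estimate, at 2.46-fold, resting largely on sFlt1 replicate 3. Flt1 itself was at 6.19 ± 3.72 CPM in sFlt1 mice and 5.86 ± 4.53 CPM in control mice (SD, n = 3 each). Kdr varied least of the members between libraries, and less than each of the 18 endothelial markers. All 9 members passed the filter on low counts, 6 with higher and 3 with lower estimates in sFlt1 mice. At an unadjusted p under 0.05 there was 1 member, Vegfd, which is 11.1% of the members, against 11.1% of all genes tested (4.84% with sFlt1 mice higher). A log2 fold change of 1 or more was estimated for 2 members, Vegfd and Dll4, and for 6.75% of all genes. By the count of small p-values the members did not stand out from the background. DESeq2 passed 0 members and 2.35% of genes, and 0 members and 1.56% of genes passed in the authors' deposited table.

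**Figure D1:**
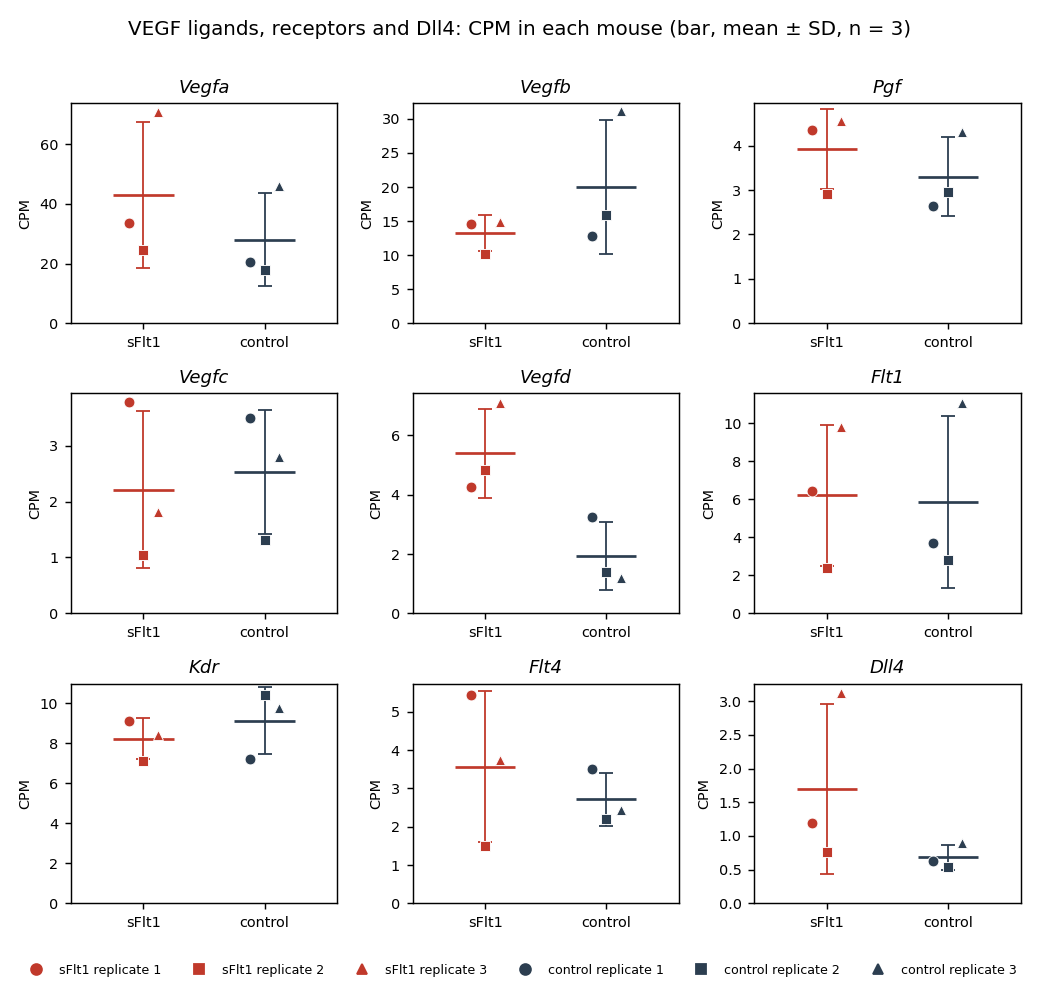
CPM of each member (y axes, from 0) in the 3 sFlt1 and the 3 control mice (x axes), where symbols mark the replicate, bars the mean and whiskers the SD. Only the panel of Vegfd shows no overlap between the groups, with sFlt1 mice from 4.25 to 7.10 CPM and control mice from 1.18 to 3.26 CPM.

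Flt1 is the gene whose soluble form the transgene encodes, but its counts cannot check the transgene. The gene (ENSMUSG00000029648, chromosome 5, 147498414 to 147662821, GRCm39, minus strand) had 183, 108 and 426 reads in sFlt1 replicates 1, 2 and 3 and 125, 79 and 495 reads in control replicates 1, 2 and 3. As CPM these were 6.42, 2.36 and 9.79 in sFlt1 mice and 3.71, 2.81 and 11.07 in control mice. Replicate 3 was highest in both groups and replicate 2 lowest, so the groups overlapped over most of their range. Its log2 fold change was 0.08 (95% interval -1.58 to 1.73, edgeR adjusted p = 0.97). This interval was the widest of the members, at 3.32 log2 units, so that neither a moderately higher nor a moderately lower level was detectable. The counts are per gene and separate neither the soluble from the full-length form nor transgene from endogenous reads, and nothing states whether transgene reads align to this gene. The estimate moved to 0.92 without control replicate 3, the library with the most brain and bulb marker RNA, and -0.43 without sFlt1 replicate 3. Camk2a, whose promoter drives the transgene by way of tTa, was at 23.1, 26.3 and 24.9 CPM in sFlt1 mice and at 42.1, 33.1 and 260.7 CPM in control mice.

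Kdr (chromosome 5, 76093487 to 76139118) had 260, 326 and 366 reads in sFlt1 replicates 1, 2 and 3, against 244, 292 and 436 reads in control replicates 1, 2 and 3. Its level was 9.13, 7.11 and 8.41 CPM in sFlt1 mice and 7.24, 10.4 and 9.75 CPM in control mice. The groups overlapped, and the highest library was 1.46 times the lowest. This ratio was smaller than that of the other 8 members, which ran from 1.72 for Pgf to 5.99 for Vegfd, and than that of each of the 18 endothelial markers, of which the steadiest was Sox17 at 1.81. The log2 fold change of Kdr was -0.15 (95% interval -0.85 to 0.54, adjusted p = 0.86), the narrowest interval of the group. Flt4 (chromosome 11, 49500090 to 49543566), the receptor of lymphatic vessels, was at 5.44, 1.51 and 3.75 CPM in sFlt1 mice and 3.5, 2.21 and 2.44 CPM in control mice. Replicate 2 was lowest in each group and sFlt1 replicate 2 was below all controls. For Flt4 the log2 fold change was 0.39 (95% interval -0.89 to 1.67, adjusted p = 0.80), and it was -0.029 without sFlt1 replicate 1 and 0.76 without sFlt1 replicate 2.

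Vegfd (ENSMUSG00000031380, chromosome X, 163156374 to 163185646, plus strand), a ligand of Flt4 in mice, had 121, 222 and 309 reads in sFlt1 replicates 1, 2 and 3 and 110, 39 and 53 reads in control replicates 1, 2 and 3. It stood at 4.25, 4.85 and 7.10 CPM in sFlt1 mice and at 3.26, 1.39 and 1.18 CPM in control mice. Every sFlt1 mouse lay above every control, a pattern shown by 8.76% of all genes tested. This gave a log2 fold change of 1.47 (SE 0.52, 95% interval 0.24 to 2.71, unadjusted p = 0.026, edgeR adjusted p = 0.43). In the authors' deposited table it was 1.48 (SE 0.52) with an adjusted p of 0.12. Vegfd ranked 1175th of 19899 genes by p. The libraries with Xist reads held the highest Vegfd of each group, sFlt1 replicate 3 and control replicate 1. In them Vegfd was at 7.10 CPM in the sFlt1 mouse and 3.26 CPM in the control, and in the other 4 libraries at 4.25 and 4.85 CPM in sFlt1 mice and 1.39 and 1.18 CPM in controls. Without both libraries it was 1.83 on the log2 scale. Leaving out 1 mouse at a time gave values from 1.21 to 2.09, all with sFlt1 mice higher.

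Dll4 (ENSMUSG00000027314, chromosome 2, 119156265 to 119166443, plus strand) was the least abundant member in CPM, with 34, 35 and 136 reads in sFlt1 replicates 1, 2 and 3 and 21, 15 and 40 reads in control replicates 1, 2 and 3. In CPM it was at 1.19, 0.764 and 3.13 in sFlt1 mice and at 0.623, 0.534 and 0.894 in control mice. sFlt1 replicate 3 was far above the rest, and sFlt1 replicate 2 lay below control replicate 3, so the groups overlapped. An estimate of 1.30 on the log2 scale was obtained (SE 0.63, 95% interval -0.18 to 2.79, edgeR adjusted p = 0.49), which became 0.50 without sFlt1 replicate 3 and 0.44 without both libraries with Xist reads. The authors' deposited table gives 1.32 (SE 0.67) with an adjusted p of 0.43. The model of Gm14207, a long non-coding RNA on the opposite strand, overlaps 411 bases at the start of Dll4, and had 2 to 10 reads per library. No strand setting of the counting is stated, so reads in that stretch are uncertain.

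The sequences upstream of Vegfd and Dll4 are shown because these genes had the highest estimates, a choice made after their values were seen. Each is the 250 bases before the gene's start in RefSeq (GRCm38.p6, so positions differ from those above), 5′ to 3′ on the gene's own strand, here the plus strand, at chrX:164373272-164373521 and chr2:119325534-119325783. Capitals mark matches, on either strand, to the GC box GGGCGG, the RBPJ motif TGGGAA of Notch-dependent promoters and the hypoxia response core ACGTG.
Vegfd: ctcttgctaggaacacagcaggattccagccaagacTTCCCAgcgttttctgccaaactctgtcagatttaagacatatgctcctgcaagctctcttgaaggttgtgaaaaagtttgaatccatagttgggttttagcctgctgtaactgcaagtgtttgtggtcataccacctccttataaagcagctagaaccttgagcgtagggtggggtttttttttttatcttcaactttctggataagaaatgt
Dll4: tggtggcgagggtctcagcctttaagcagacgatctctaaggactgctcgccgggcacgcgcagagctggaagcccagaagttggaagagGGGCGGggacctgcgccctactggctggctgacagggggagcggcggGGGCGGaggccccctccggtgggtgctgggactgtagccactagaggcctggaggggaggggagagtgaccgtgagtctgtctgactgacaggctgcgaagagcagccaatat
No matches in these sequences overlap each other. The window of Vegfd had 1 RBPJ motif, no GC box and a GC content of 42.4%, the lowest of the members. The window of Dll4 had 2 GC boxes, neither of the other motifs and a GC content of 65.6%. All 9 members matched the promoter table, in 11 windows. The share of all 32851 promoter windows with a match was 32.7% for the GC box, 21.6% for the RBPJ motif and 16.6% for the hypoxia core. These matches describe the letters of the window and not a bound site.

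The other ligands overlapped between the groups. Vegfa (chromosome 17, 46327919 to 46343295), the main ligand of Kdr and a target of hypoxia-inducible factors, was at 33.6, 24.6 and 70.7 CPM in sFlt1 mice and 20.6, 17.7 and 45.9 CPM in control mice. Replicate 3 was highest in both groups, and the other sFlt1 mice lay above the other controls. The estimate was 0.61 on the log2 scale (SE 0.51, 95% interval -0.59 to 1.82, adjusted p = 0.67). Leaving out control replicate 3 gave 1.17, leaving out sFlt1 replicate 3 gave 0.048, and leaving out the pair of libraries with Xist gave -0.13. sFlt1 replicate 3 also held the highest level of Car9, a hypoxia-induced carbonic anhydrase, at 44.1 CPM, where no other library passed 1.58 CPM. Other hypoxia-induced genes were mixed. Adm was also highest in sFlt1 replicate 3, but Ldha was highest in sFlt1 replicate 1 and Pgk1 in control replicate 3. The part of the state of sFlt1 replicate 3 in the value of Vegfa was not tested.

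Vegfb (chromosome 19, 6959841 to 6965019), a ligand of Flt1, was at 14.6, 10.2 and 14.8 CPM in sFlt1 mice and 12.8, 16.0 and 31.2 CPM in control mice. Control replicate 3 stood apart, and the remaining 5 libraries lay within 10.2 to 16.0 CPM. Its estimate was -0.60 on the log2 scale (SE 0.39, 95% interval -1.51 to 0.31, adjusted p = 0.59), and -0.13 without control replicate 3. Pgf (chromosome 12, 85213409 to 85224564), placental growth factor, which also binds Flt1, was at 4.35, 2.90 and 4.55 CPM in sFlt1 mice and 2.64, 2.96 and 4.31 CPM in control mice, a log2 fold change of 0.25 (95% interval -0.69 to 1.19). Vegfc (chromosome 8, 54530641 to 54640131), the lymphatic growth factor, was at 3.79, 1.05 and 1.82 CPM in sFlt1 mice and 3.5, 1.32 and 2.79 CPM in control mice, a log2 fold change of -0.20 (SE 0.62). Both genes spread as widely within a group as between the groups. The ligands of Flt4 thus had estimates on opposite sides of 0, with Vegfd at 1.47 and Vegfc at -0.20, a difference that was not tested.

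**Figure D2:**
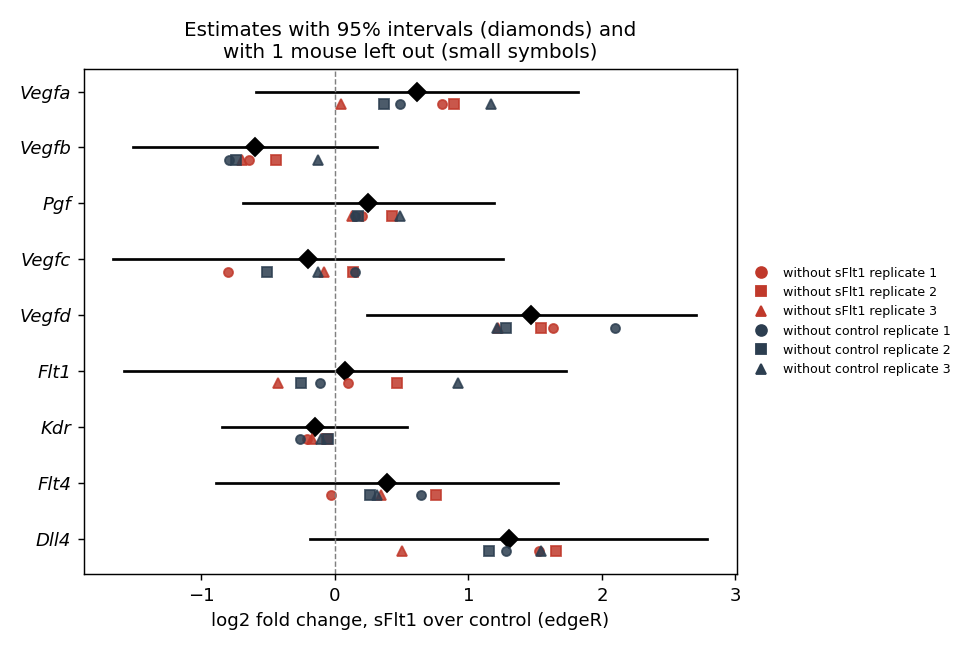
Log2 fold change of each member, sFlt1 over control (x axis), with all mice (diamonds, lines for the 95% interval) and with 1 mouse left out (small symbols, coloured by group and shaped by replicate). Only the interval of Vegfd, 0.24 to 2.71, lies wholly above 0, and the symbols of Flt1 spread from -0.43 to 0.92.

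Per length of the gene models, the ligands Vegfa and Vegfb were the most abundant members. CPM was divided by kilobases of merged exons for this comparison. Vegfa was at 10.02 ± 5.72 CPM per kilobase in sFlt1 mice and 6.55 ± 3.62 in control mice, and Vegfb at 8.23 ± 1.63 in sFlt1 mice and 12.5 ± 6.13 in control mice (SD, n = 3 each). Vegfb was above Vegfa in all 3 control mice, and Vegfa was above Vegfb in 1 of the 3 sFlt1 mice, sFlt1 replicate 3. In sFlt1 mice Vegfd came next, at 2.24 ± 0.63 CPM per kilobase, followed by Pgf at 1.36 ± 0.31, and neither Vegfb and Vegfd nor Vegfd and Pgf overlapped. In control mice Vegfd was at 0.808 ± 0.476 CPM per kilobase, below Pgf, Vegfc and Kdr, and it overlapped with its neighbours Kdr and Flt1. Kdr was the most abundant receptor per kilobase, at 0.910 ± 0.113 in sFlt1 mice and 1.01 ± 0.185 in control mice. Flt1 was at 0.458 ± 0.276 in sFlt1 mice and 0.434 ± 0.335 in control mice, and Flt4 at 0.433 ± 0.240 in sFlt1 mice and 0.330 ± 0.084 in control mice. Flt1, Dll4 and Flt4 overlapped in sFlt1 mice, while Dll4 was lowest in all 3 control mice, at 0.178 ± 0.049 CPM per kilobase.

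**Figure D3:**
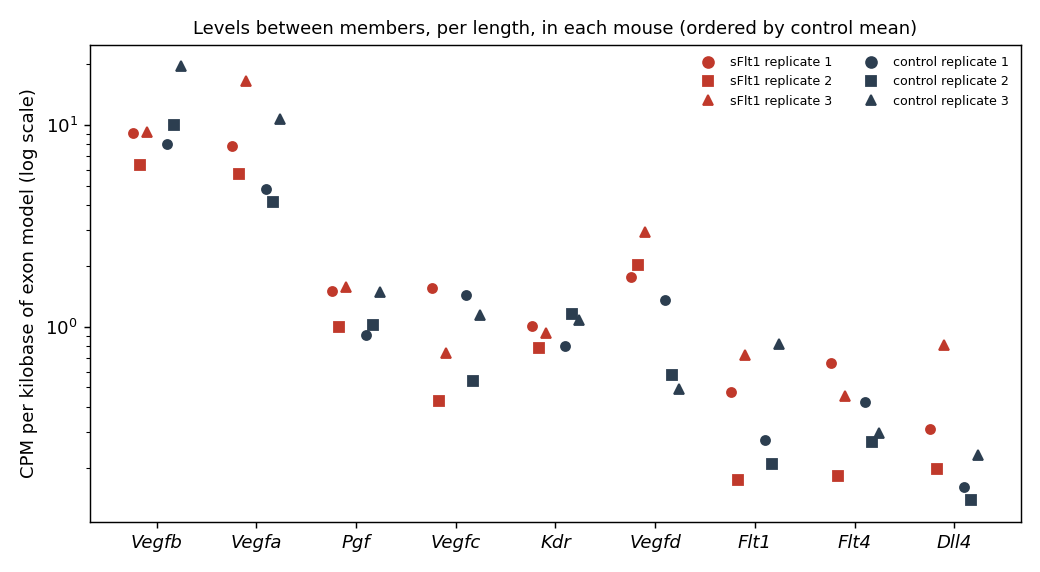
CPM per kilobase of merged exons (y axis, log scale) of each member in every mouse, with sFlt1 mice in red left of control mice in dark blue. Vegfa and Vegfb lie above 4 CPM per kilobase in every mouse, and all other members below 3.

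The receptors and Dll4 were set against the summed CPM of the 18 endothelial markers in the same library, since nasal dissections can differ in how much vessel they hold. In bulk tissue, fewer cells of a type and less RNA per cell cannot be told apart. The endothelial sum was 96.1, 36.8 and 84.5 CPM in sFlt1 replicates 1, 2 and 3 and 62.0, 59.0 and 99.3 CPM in control replicates 1, 2 and 3 (exact permutation p = 0.80, two-sided, for which the smallest p possible is 0.1). sFlt1 replicate 2 was low in 16 of these 18 markers and in 8 of the 9 members relative to the other sFlt1 mice. In control replicate 3, Cldn5, a tight junction protein abundant in brain vessels, made up 43.1 CPM of the sum. Relative to this sum, Dll4 was at 0.0124, 0.0208 and 0.0370 in sFlt1 mice and 0.0100, 0.0091 and 0.0090 in control mice. All 3 sFlt1 mice lay above the controls, a mean log2 difference of 1.18 (exact permutation p = 0.10, adjusted p = 0.40 over 4 ratios). The control ratios rest on 21, 15 and 40 reads of Dll4. Cldn5 enlarges the sum of control replicate 3. Leaving Cldn5 out puts the Dll4 ratio of that mouse above that of sFlt1 replicate 1, and the groups overlap. With only Pecam1, Cdh5, Tie1, Esam and Egfl7 as markers the difference was 0.91. The lowest sFlt1 ratio was then 0.0530 and the highest control ratio 0.0504. With all 18 markers the difference was 0.78 without sFlt1 replicate 3. The ratio of Kdr was highest in the replicate 2 libraries, at 0.193 in the sFlt1 mouse and 0.176 in the control, against 0.117 or less in the other 4 libraries. Its log2 difference was -0.047, that of Flt1 0.21 and that of Flt4 0.33 (exact permutation adjusted p of 0.67 to 0.90).

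**Figure D4:**
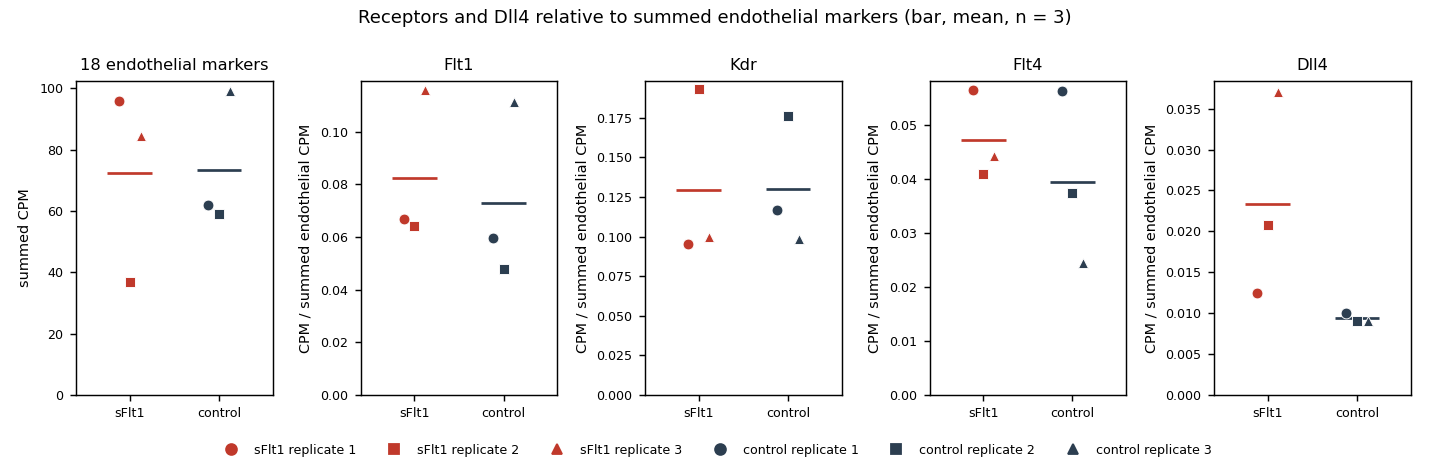
Summed CPM of 18 endothelial markers (left panel) and the ratio to it of Flt1, Kdr, Flt4 and Dll4 (other panels, y axes from 0) in each sFlt1 and control mouse, with bars at the mean. The ratio of Dll4 lies from 0.0124 to 0.0370 in sFlt1 mice and from 0.0090 to 0.0100 in control mice, while the other ratios overlap. This separation of Dll4 depends on the markers summed. It is lost when Cldn5 alone is left out of the 18, and kept with the 5 markers, which do not include Cldn5.

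Ratios between members within a library do not depend on its scaling. Vegfa over Kdr was 3.68, 3.45 and 8.41 in sFlt1 mice and 2.84, 1.70 and 4.71 in control mice, and Vegfa over Flt1 was 5.22, 10.4 and 7.22 in sFlt1 mice and 5.54, 6.29 and 4.15 in control mice. Both overlapped, with mean log2 differences of 0.74 and 0.48. Vegfc over Flt4 was 0.697, 0.696 and 0.485 in sFlt1 mice and 1.0, 0.597 and 1.15 in control mice, a log2 difference of -0.51 with overlap. Dll4 and Kdr are not a ligand and its receptor. Dll4 over Kdr was 0.131, 0.107 and 0.372 in sFlt1 mice and 0.0861, 0.0514 and 0.0917 in control mice. The groups did not overlap, with a log2 difference of 1.23. The closest values, in sFlt1 replicate 2 and control replicate 3, rest on 35 and 40 reads of Dll4. Among single genes, 18.3% of those tested did not overlap. Over the 7 ratios tested, adjusted exact permutation p-values ran from 0.56 to 0.80, and with 3 mice a side the smallest unadjusted p is 0.1.

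The genes most like a member over the 6 libraries were found by Pearson r of log2 CPM, as a description of libraries that share a group, a depth and a dissection. By this measure the closest of 15212 genes to Flt1 were Gprin2, Ppp2r5a and Pik3r1. The closest to Kdr were Dph7, Dtnb and Sec22b, those to Vegfa were Smad7, Sgcb and Scamp3, and those to Dll4 were Cnot8, Satb1 and Glipr2. All 12 had r of 0.968 or more over only 6 libraries. Among the members, Vegfa had r of 0.91 to Dll4, 0.88 to Pgf and 0.88 to Flt1, and Kdr had r of 0.69 to Vegfb, -0.66 to Vegfd, 0.45 to Pgf, 0.36 to Flt1 and 0.11 to Vegfa.

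Genes around the VEGF receptors were described by lists, with 0 members of any list passing by edgeR and a median log2 fold change of 0.017 over all genes, 51.3% of which had estimates above 0. Adm, Angpt2, Egln3, Tie1 and Tek each stand in more than 1 list, so the counts of these lists are not separate. The co-receptors Nrp1 and Nrp2 bind VEGF ligands and semaphorins. Nrp2 was at 158.1, 129.0 and 151.1 CPM in sFlt1 mice and 133.5, 76.0 and 85.1 CPM in control mice, a log2 fold change of 0.57 (95% interval -0.014 to 1.16), and Nrp1 had -0.14. Of 18 signalling genes downstream of the receptors 13 had higher estimates, with a median of 0.12. The adaptor Shb, which binds activated Kdr, was at 21.5, 19.9 and 47.4 CPM in sFlt1 mice and 14.2, 13.4 and 15.9 CPM in control mice (log2 fold change 1.03, edgeR adjusted p = 0.43). The transcription factor Nfatc1 was at 55.0, 80.5 and 43.5 CPM in sFlt1 mice and 113.7, 122.1 and 95.6 CPM in control mice (-0.89, edgeR adjusted p = 0.43). The groups did not overlap in these genes and in Pxn, a focal adhesion protein, which had 0.59. Such separation was seen in 18.3% of all genes tested. Without sFlt1 replicate 3 Shb was at 0.51 and the median of the list at 0.0023. Ppp3ca, a calcineurin subunit that activates NFAT factors, had 0.11.

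Of 11 genes that VEGF induces in tip cells, 9 had higher estimates, with a median log2 fold change of 0.53, and of 0.21 without sFlt1 replicate 3. The largest rested on sFlt1 replicate 3. Plaur, the urokinase receptor, was at 1.68, 0.502 and 8.09 CPM in sFlt1 mice and 0.741, 0.606 and 0.470 CPM in control mice, and the vasodilator gene Adm at 2.28, 1.55 and 17.7 CPM in sFlt1 mice and 1.93, 0.890 and 2.12 CPM in control mice. Their log2 fold changes were 2.50 and 2.11, and 0.84 and 0.21 without that mouse. Esm1, a tip cell proteoglycan gene, was at 4.78 CPM in sFlt1 replicate 3 and never above 1.05 CPM in another library. Rcan1, a feedback inhibitor of calcineurin, had 0.36 and the chemokine receptor gene Cxcr4 0.57. Of 11 hypoxia-induced genes 10 had higher estimates (median 0.35, and -0.037 without sFlt1 replicate 3), with the glycolytic enzymes Ldha at 0.70 and Pgk1 at 0.19. Of 8 genes for hypoxia-inducible factors and their regulators 6 had higher estimates (median 0.17, and -0.051 without sFlt1 replicate 3), and Epas1, which encodes one of these factors, was at 3393 CPM in sFlt1 replicate 3 and at most 1343 CPM elsewhere. Its log2 fold change of 0.59 turned to -0.22 without that mouse. Hif1a, which encodes another, had 0.21.

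Notch ligands and receptors other than Dll4 were split, 4 higher and 4 lower, with a median log2 fold change of 0.015, which ran from -0.13 to 0.20 with a mouse left out. Jag1, an antagonist of Dll4 in sprouting vessels, had -0.20, Jag2 0.041, Dll3 0.54 and the receptor gene Notch2 -0.012. Notch target genes had a median of -1.07, with 3 of 8 higher and 5 lower, while Dll4 had a higher estimate. In 4 of them every sFlt1 mouse lay below every control, as in 9.51% of all genes. Hey2, a transcriptional repressor active in arterial endothelium, was at 8.70, 3.38 and 8.83 CPM in sFlt1 mice and 15.9, 24.9 and 76.7 CPM in control mice (log2 fold change -2.49, edgeR adjusted p = 0.43). Nrarp, a feedback regulator of Notch, was at 13.3, 18.5 and 10.7 CPM in sFlt1 mice and 23.2, 38.0 and 89.0 CPM in control mice (-1.82, edgeR adjusted p = 0.43), and Heyl and Hes5 had -1.65 and -3.27. DESeq2 passed Hey2, Nrarp and Hes5, with adjusted p of 0.016, 0.033 and 0.0057, against 2.35% of all genes tested. In the other lists it passed Cd14, Th and Gabra2. Control replicate 3 was the highest of the libraries in all 4, as it was in the sum of brain and bulb neuron markers. Without it the log2 fold changes were -1.55 for Hey2, -1.11 for Nrarp, -0.997 for Heyl and -1.96 for Hes5. The part of brain or olfactory neuron RNA in the Notch targets was not tested. The other targets Hey1, Hes1, Efnb2 and Unc5b had 0.064, 0.23, 0.27 and -0.49.

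Markers of the vessels themselves did not pass either. Of 18 endothelial markers 15 had higher estimates and the median was 0.23, with Emcn, an endothelial sialomucin, at 1.11, Eng, a TGF-beta co-receptor, at 0.69 and Cldn5 at -1.25. The median was -0.031 without sFlt1 replicate 1 and 0.55 without sFlt1 replicate 2. Of 6 lymphatic markers 4 were higher (median 0.45). Lyve1, the hyaluronan receptor of lymphatic vessels, was at 2.63, 0.327 and 1.47 CPM in sFlt1 mice and 0.475, 0.606 and 0.380 CPM in control mice, and Mmrn1, another lymphatic gene, had 0 reads in sFlt1 replicate 3. Pdpn and Reln had 0.77 and -1.18. Reln was at 54.3 CPM in sFlt1 replicate 3, at 130.6 CPM in control replicate 3 and at no more than 16.0 CPM elsewhere. Each of these libraries had the highest brain and bulb marker sum of its group. The part of brain RNA in the value of Reln was not tested. Of 8 mural markers 5 were higher (median 0.21), with Myh11, a smooth muscle myosin, at 101.5 CPM in sFlt1 replicate 3 and at 29.6 CPM or below elsewhere. Rgs5 of pericytes and Acta2 of smooth muscle had -0.31 and 0.25. The mural median was -0.25 without sFlt1 replicate 1 and the lymphatic median -0.030. The receptor gene Tie1 had 0.76 and its pathway's ligand genes Angpt1 and Angpt2 had -0.45 and 0.53, none past the threshold. The median of the 4 angiopoietin and Tie genes, 0.17, was -0.083 without sFlt1 replicate 1.

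**Figure D5:**
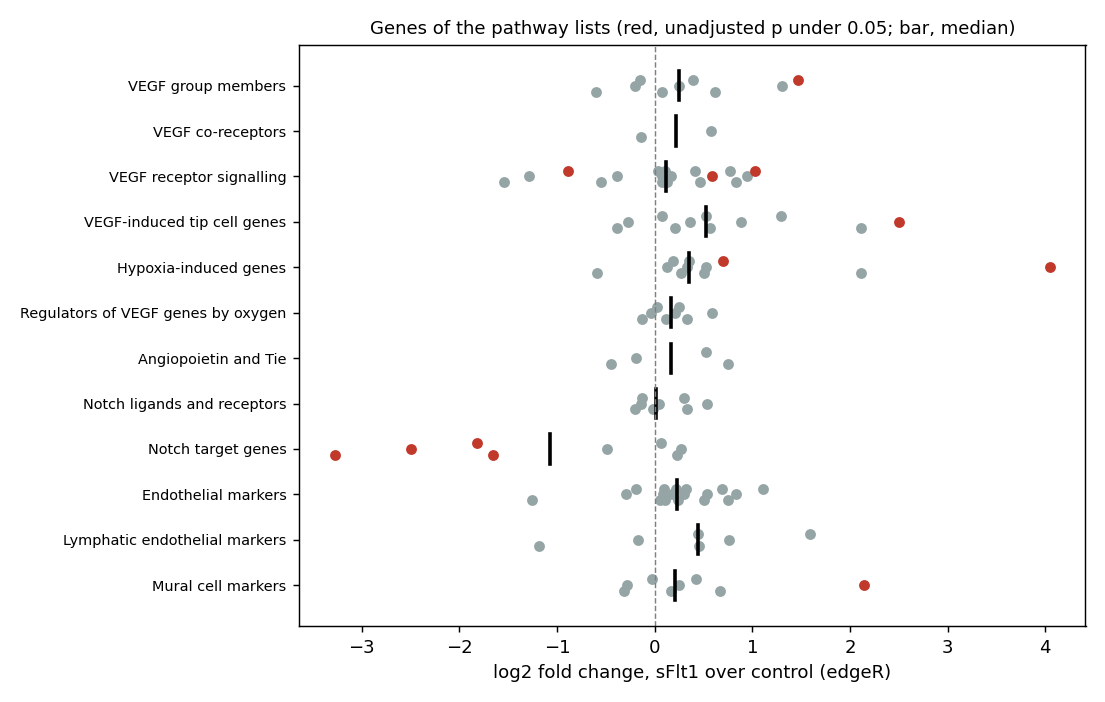
Log2 fold change, sFlt1 over control (x axis), of each gene in 12 lists (rows), with red points at an unadjusted edgeR p under 0.05, grey points above it, and black bars at the list's median. The bar of the Notch target genes lies at -1.07, while those of the other lists lie between 0.015 and 0.53.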

How the data were processed

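Bulk RNA was sequenced from nasal conchae of 3 sFlt1 and 3 control mice, from 200 ng of total RNA each. The authors deposited raw read counts per Ensembl gene. The submitters' processing notes name GRCm39 as build, and DESeq2 1.26.0, HTSeq 2.0.1, TopHat2 2.2.1 and cutadapt 3.5 as tools. How reads were aligned, stranded and assigned is not stated, so reads of near-identical or overlapping genes could be split. Adjusted p-values and log2 fold changes by DESeq2 stand in the authors' deposited table as well. Of 55414 entries 6250 held no values. Another 48 per-sample columns were not used. The letters in the descriptions tied each column to a mouse.

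The fit used edgeR 4.0.16 under R 4.3.3 (TMM factors, filterByExpr, quasi-likelihood test with no covariate), and p-values were adjusted by Benjamini-Hochberg over 19899 genes, with a threshold of 0.05. An SE was taken from each estimate and its F, and intervals are 95%. DESeq2 1.42.0 and voom in limma 3.58.1 were alternatives, as were other scalings and filters, the replicate block and leaving out mice. Exon lengths came from GENCODE M21 (GRCm38), matched by gene ID, and log2 CPM for correlations used a prior count of 2. The p-values set the difference between groups against the spread between mice, which were taken as independent. Nothing says whether mice shared a litter, and a shared litter was not accounted for. On simulated data with 200 genes changed 4-fold among 19899, 43% were recovered at the trended spread, with 3 false calls. The genes were simulated independently, without shifts shared by a whole library. The fold was also above the highest estimate of a member, 2.77. The share therefore gives no recovery rate for the members.

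The members and lists were chosen with earlier results of these data known. Named were all members, the 2 genes of each list with the smallest p, the 2 with the highest CPM, and for Flt1, Kdr, Vegfa and Dll4 the 3 genes most correlated with them at a mean CPM of 2 or more. Genes overlapping a member are named too. Esm1, Pxn, Hes1, Efnb2, Heyl, Nrarp, Mmrn1, Sox17 and Kdm5d were named after their values were seen, as were the printed promoters.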

Additional observations from a re-analysis of the deposited data

How the results depend on the processing

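No member passed under any of the alternatives run, and adjusted p-values of Vegfd ran from 0.10 with DESeq2 to 0.80 without control replicate 3. Counts of genes passing over all genes were 0 by edgeR (2204 at an unadjusted p under 0.05), 468 by DESeq2, 0 by limma voom and 0 to 1 with a mouse left out. Vegfd, Dll4, Kdr and Vegfb kept the sign of their log2 fold changes throughout. With a mouse left out these ran from 1.21 to 2.09 for Vegfd, 0.50 to 1.65 for Dll4, -0.26 to -0.049 for Kdr, -0.79 to -0.13 for Vegfb, 0.048 to 1.17 for Vegfa and 0.13 to 0.49 for Pgf. They changed sign for Flt1 (-0.43 to 0.92), Flt4 (-0.029 to 0.76) and Vegfc (-0.80 to 0.15). Without both libraries with Xist reads the sign also turned for Flt1 (-0.66), Vegfa (-0.13), Vegfc (0.23) and Pgf (-0.00090), and with limma voom for Flt1 (-2.7e-06). The log2 difference of the endothelial sum was -0.095, with -0.36 to 0.34 when a mouse was left out and 0.17 with 5 markers. Relative to that sum, Flt1 ran from -0.060 to 0.57 with a mouse left out, was -0.16 without both libraries with Xist reads and -0.052 with 5 markers, and Kdr ran from -0.38 to 0.19 and was 0.043 without both libraries. Pgf over Flt1 ran from -0.25 to 0.47, Flt1 over Kdr from -0.24 to 0.80, the last at -0.20 without both libraries. Causes were not tested. Without control replicate 3 and sFlt1 replicate 3, an alternative chosen after seeing the data, Vegfd was at 0.96, Dll4 at 0.74 and the Notch target median at -0.61. Same-numbered mice had correlations of 0.026, 0.25 and 0.36 in their deviations from the group means. Differently numbered mice had correlations from -0.42 to 0.29. These values do not settle a pairing, no label states one, and the numbers were not taken as pairs. With the replicate block 0 genes passed and Vegfd was at 1.59, Dll4 at 1.10 and Vegfa at 0.60. Dll4 rests on 15 to 136 reads per library, which limits its precision.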
